A study of Mus musculus with 8 samples.

Results

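The 151 genes described here are those whose symbol in the deposited table begins with Zfp followed by a digit, without the stem cell marker Zfp42, out of 8125 genes listed. Most of them encode zinc finger proteins that bind DNA. The libraries came from undifferentiated mouse embryonic stem cells of the TC1 line, grown without feeder cells in LIF and serum. Knockout cells (KO, Dis3l2 -/-), which lack the exoribonuclease Dis3l2 and had been made earlier by CRISPR/Cas9 editing, were compared with heterozygous control cells (Dis3l2 +/-), so that the control also carried a disrupted allele. From lysates of cycloheximide-treated cells, 2 input libraries (mRNA after rRNA depletion) and 2 RPF libraries were made per genotype, where an RPF is a ribosome-protected fragment, the stretch of an mRNA left after nuclease has cut around a ribosome. The number of clones behind each genotype is not given in the sources used here, so a difference between clones and a difference between genotypes cannot be told apart. TE, the translation efficiency, was RPF over input for each gene, taken between libraries of the same genotype and number.

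In the C2H2 zinc finger a pair of cysteines and a pair of histidines hold a zinc ion, and strings of such fingers read DNA. Many mouse zinc finger proteins also carry a KRAB domain near their start, which recruits the corepressor Trim28 and with it the histone methyltransferase Setdb1, so that the bound site is packed into silent chromatin. In embryonic stem cells KRAB proteins are known for silencing retroelements and for keeping imprinted loci methylated. A few genes with a Zfp name encode proteins of other kinds, such as RNA-binding CCCH finger proteins.

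Translation of the coding sequences from GENCODE M21 on GRCm38.p6 sorted the members into 3 classes. A KRAB pattern together with C2H2 fingers was found in 67 members, C2H2 fingers without it in 75, and no C2H2 pattern in 9 (Zfp36, Zfp36l1, Zfp36l2, Zfp185, Zfp330, Zfp395, Zfp609, Zfp704 and Zfp839). The KRAB pattern was rare elsewhere, being present in 3 of 7815 listed genes without a finger and in 13 of 156 listed genes with a finger that were no members. The KRAB members held a median of 11 fingers (3 to 23) in a median protein of 605 residues. The other C2H2 members held a median of 7 fingers (1 to 33) in 676 residues, with the most in Zfp462 (33), Zfp142 (32) and Zfp236 (30). These counts depend on the pattern. One that allowed more residues between the cysteines found 36 in Zfp142 and 7 rather than 1 in Zfp143. It also found 1 each in Zfp395, Zfp609 and Zfp704. Members lay in groups along the genome. Of the 151, 43 stood in 10 clusters of at least 3 members with gaps of at most 500 kb, and chromosome 7 alone carried 34. A cluster of 6 at chr17:32765496-33358878 (Zfp871, Zfp799, Zfp870, Zfp472, Zfp763 and Zfp81) and a cluster of 4 at chr4:147492417-147809788 (Zfp982, Zfp985, Zfp979 and Zfp984) were made of KRAB members alone.

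The repeated finger is visible in the coding sequence. The stretches below show the first finger of 5 KRAB members that the results turn on, from the first cysteine codon to the last histidine codon, with the codons of the zinc-binding cysteines and histidines in capitals. All are on GRCm38.p6, at chr17:37009679-37009741 (plus strand) for Zfp57, chr7:30022724-30022786 (plus) for Zfp568, chr5:104815105-104815167 (minus) for Zfp951, chr8:4628289-4628351 (plus) for Zfp958 and chr7:12849494-12849556 (plus) for Zfp110.
Zfp57: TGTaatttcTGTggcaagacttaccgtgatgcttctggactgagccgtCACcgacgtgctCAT
Zfp568: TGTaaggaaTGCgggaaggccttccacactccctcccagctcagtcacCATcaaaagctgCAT
Zfp951: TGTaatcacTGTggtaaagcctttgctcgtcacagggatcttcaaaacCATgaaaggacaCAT
Zfp958: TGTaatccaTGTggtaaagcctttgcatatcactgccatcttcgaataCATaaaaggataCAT
Zfp110: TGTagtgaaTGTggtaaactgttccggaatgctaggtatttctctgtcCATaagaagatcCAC
Each stretch was 63 nucleotides long and coded for 21 residues. Many members share a linker between fingers, and this makes part of their coding sequence hard to tell apart with short reads. In others, such as Zfp57 and Zfp110, that linker was not found. A word of 28 nucleotides, about the length of a footprint, is shown because it was found in the coding sequences of 34 genes, more than any other word of a member. It lies at chr2:150409257-150409284 (minus strand) in Zfp442, and Zfp930 holds it too.
Zfp442 and Zfp930: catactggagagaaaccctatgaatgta
It runs from the last histidine codon of one finger through the linker to the first cysteine of the next. Of the 151 members, 68 had no word of 28 nucleotides in common with another gene, and 61 of these 68 were outside the KRAB class. All 25 members that shared at least 10% of their words were KRAB members. Zfp980 shared 88.0%, Zfp984 81.5%, Zfp990 59.1%, Zfp935 57.1% and Zfp936 51.4%, so that values of these genes are uncertain where reads could be placed on more than 1 of them. How the authors placed reads with several matches is not given in the sources used here for the gene values.

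The table gave read counts divided by 1 factor per library, so that whole reads could be recovered. The libraries held 8382211 to 33609787 reads in input but only 558962 and 1126782 in control RPF, and 268255 and 140163 in KO RPF. The median member was covered by 14 and 27 RPF reads in control but by only 7 and 4 in KO. In KO RPF replicate 2 a single read was worth 15.6 units, and 128 of the 151 members had fewer than 10 reads there. Every listed gene had at least 1 read in each library, so no value could lie below 8.22 units in KO RPF replicate 1 or below 15.6 in KO RPF replicate 2, whereas the floors in control were 3.94 and 1.94. Of the markers checked, 6 stem cell genes were listed (Pou5f1, Nanog, Sox2, Esrrb, Zfp42 and Tdgf1), and 0 of them passed the test in any comparison. No fibroblast feeder marker was analysed here, nor was Dis3l2 itself. For other cell types few markers had values. Only 2 primitive endoderm markers were listed and 1 was tested, Col4a1, which was higher in KO input (log2 change 0.67, limma adjusted p = 0.0015). Zscan4d, the only two-cell-like marker listed, was lower (log2 change -0.63, limma adjusted p = 0.048). The part of these genes in the results was not tested. Column names set the direction of every change, KO over control. The sign of the fold change column in the deposited table ran the opposite way in 1106 of 1106 genes with a 2-fold or larger ratio of TE, so this direction is not settled by the table. All fitted changes are on the scale of log2 of the value plus 10, which understates those of low genes. Intervals of read shares cover counting error only.

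The members as a whole were of modest mRNA level and were less occupied by ribosomes than most genes. Their median input value was 78.1 and 80.3 units in control and 77.1 and 82.0 in KO, against 111 and 110 for all listed genes in control. The median RPF value was 55.1 and 52.4 in control, against 110 and 107 for all genes. The members' median thus lay below that of all genes by a log2 difference of -0.48 ± 0.03 in control input and of -1.01 ± 0.02 in control RPF (SD, n = 2). The median TE was 0.724 and 0.707 in control and 0.751 and 0.785 in KO, while the median of all genes was 0.998 in both control libraries and 0.9925 and 0.9921 in the KO libraries. In each control library 105 of the 151 members (69.5%) had a TE below the median of all genes. The classes differed in order. KRAB members had a median TE of 0.644 and 0.592 in control, other C2H2 members of 0.731 and 0.779, and the 9 members without a C2H2 pattern of 1.80 and 2.44. In KO the KRAB median was 0.615 and 0.774, which overlapped the control values.

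**Figure D1:**
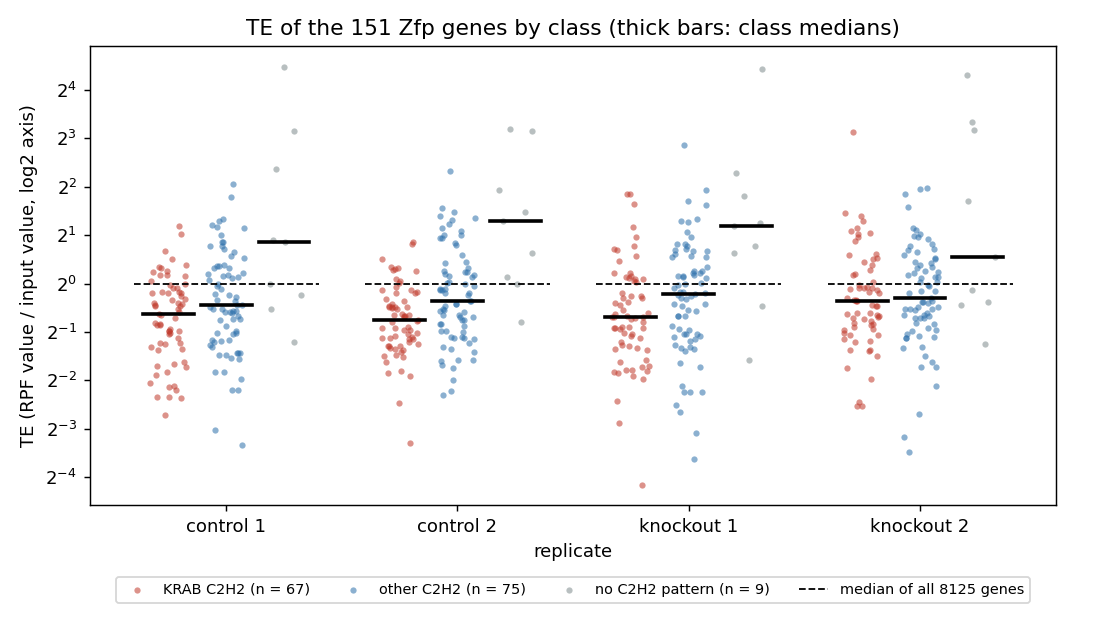
TE (RPF value over input value, log2 axis) of each of the 151 Zfp genes in the 4 pairs of libraries, with class medians as thick bars and the median of all 8125 genes as dashed lines. The KRAB median lay at 0.644 and 0.592 in control and at 0.615 and 0.774 in knockout, below the dashed line in each pair, while the median of the 9 members without a C2H2 pattern lay above it.

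TE was lower in members that shared more of their coding sequence with other genes. The 25 KRAB members that shared at least 10% of their words had a median control TE of 0.525 and 0.465, and the 42 KRAB members below that share had 0.740 and 0.633. In the 15 KRAB members that shared under 1% the median was 0.757 and 0.869, beside 0.734 and 0.813 in the 72 other C2H2 members under that limit. Among members with little shared sequence the KRAB and the other C2H2 classes therefore overlapped in median TE. Across the 151 members Spearman's correlation between the shared percentage and mean control TE was -0.29, and across the 67 KRAB members it was -0.37. Genes are not independent replicates, and all points share the same 4 libraries. The part of read placement in the low TE of these genes was not tested. TE was also lower in members with more mRNA per kb of coding sequence (Spearman's correlation -0.38, n = 151), a relation that shares the input value on both axes.

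**Figure D2:**
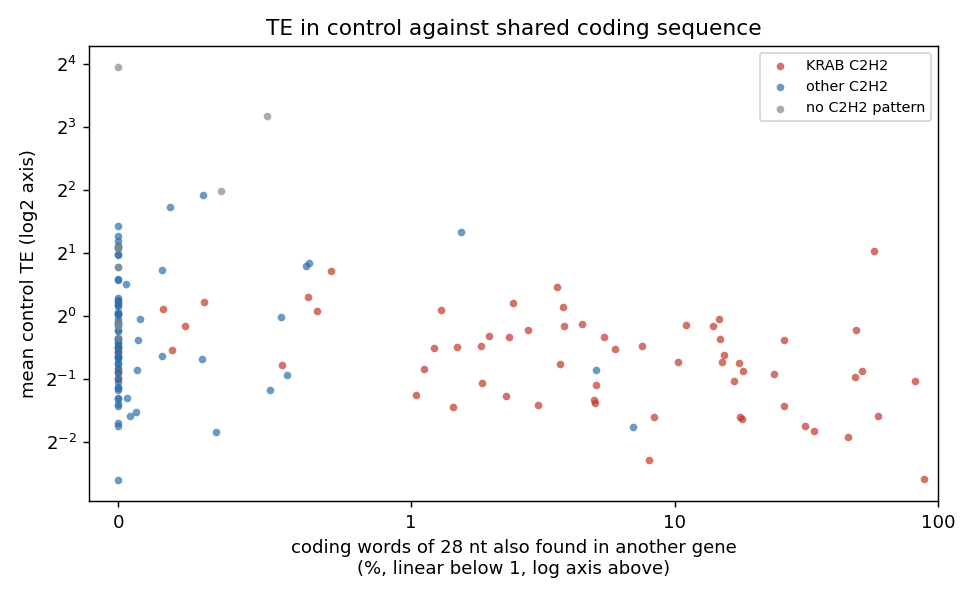
Mean control TE (log2 axis) against the percentage of a member's coding words of 28 nucleotides that also occur in another gene (linear below 1, log axis above), 1 point per gene. Points at 10% or more are all KRAB members and lie mostly below a TE of 1.

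Single members spanned a wide range. Mean input ran from 1.90 units (Zfp36) to 1135 (Zfp106), and mean RPF from 12.3 to 825 (Zfp57). The 6 members with the most mRNA were Zfp106, Zfp638, Zfp57, Zfp568, Zfp207 and Zfp292. Zfp57, which keeps imprinted control regions methylated, had the most RPF of all members, and per kb of coding sequence its RPF value of 653 was also the highest. Its input was 596 and 583 units in control and 544 and 529 in KO. Its RPF was 559 and 826 in control and 887 and 1026 in KO. Both KO RPF values were thus above both control values although the input was lower in KO, and TE went from 0.938 and 1.42 to 1.63 and 1.94. Neither the RPF difference (log2 change 0.48 ± 0.23 SE, limma adjusted p = 0.46) nor that of TE (0.62 ± 0.25, limma adjusted p = 0.37) passed the test. Zfp568, which in the mouse silences a placental transcript of Igf2, was translated near the average of genes, with a TE of 1.12 and 1.04 in control and 1.02 and 0.815 in KO.

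The highest TE among members tested belonged to Zfp36l1, an RNA-binding protein that speeds the decay of mRNAs with AU-rich elements. Its input was only 17.3 and 12.3 units in control, yet its RPF was 154 and 112, and TE was 8.87 and 9.18. In KO its TE was 21.5 and 10.03, both above control, with a log2 change of 0.53 ± 0.46 SE and a limma adjusted p of 0.67. Its relatives Zfp36 and Zfp36l2 also had more RPF than input in every library, at TEs of 3.51 to 22.2 and of 2.39 to 8.95. Both fell below a filter and were not tested for TE. In Zfp36 this excess of RPF was fixed in advance. Its input of 1.57 to 2.34 units lay below the RPF floor of the matching library in every pair, and its KO RPF was 1 and 2 reads. In Zfp36l2 the same held in KO replicate 2, at an input of 8.69 units. Next in order came Zfp687, Zfp512b, Zfp865, Zfp592 and Zfp609, with control TEs between 1.70 and 2.96. Zfp592 and Zfp687 encode partners in 1 nuclear complex. The lowest TE was that of Zfp646, a protein of 27 fingers, with an input of 225 and 219 units and an RPF of 27.6 and 44.6 in control, giving 0.122 and 0.204. Zfp850, Zfp958, Zfp990, Zfp277 and Zfp229 followed, with control TEs between 0.182 and 0.453. In these 2 orders, neighbours overlapped between their replicates, except that Zfp36l1 stood clear of Zfp687 and Zfp850 of Zfp958.

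The first comparison asked whether mRNA levels of the members differed between genotypes. Of the 151 members, 147 had a mean input of at least 10 units and were tested, and 0 passed an adjusted p of 0.05 (limma on log2 of the value plus 10, Benjamini-Hochberg over all 7946 genes tested), where 0.340% of all genes did. At an unadjusted p under 0.05 there were 8 members higher and 5 lower, 8.84% of those tested against 12.7% of all genes (6.54% higher and 6.19% lower). Both KO values lay above both control values in 32 members (22.9% of all genes) and below in 29 (21.1%). Of all genes, 44.0% did not overlap in this way. The median log2 change was 0.005 in the members and 0.003 in all genes, so the family as a whole sat where other mRNAs did. The smallest p belonged to the KRAB member Zfp951, at 47.8 and 42.01 units in control and 71.0 and 59.0 in KO. Both KO values were higher, by a log2 change of 0.45 ± 0.10 SE with a limma adjusted p of 0.15. At the other end stood Zfp444, at 45.6 and 46.8 units in control and 37.0 and 35.2 in KO (log2 change -0.29 ± 0.09, limma adjusted p = 0.27). Zfp568 was at 487 and 492 units in control and 558 and 553 in KO, a log2 change of 0.18 ± 0.06 with a limma adjusted p of 0.29. The other members named by the smallest p, with KO values beyond control values, were Zfp516 and Zfp91 on the higher side and Zfp131, Zfp593 and Zfp945 on the lower side, with log2 changes between -0.19 and 0.24.

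The second comparison asked whether ribosomes on these mRNAs differed. With a mean RPF of at least 50 units 85 members were tested, and 0 passed (limma adjusted p, smallest 0.35), where 0.623% of all genes did. At an unadjusted p under 0.05, 5 members were higher and 0 lower, 5.88% of those tested against 10.8% of all genes (5.08% higher and 5.77% lower). The filter takes in the KO values themselves, so this split by direction is given as a description. On the recovered whole reads, edgeR and DESeq2 also called 0 members (background 1.44% and 0.895%). Among the 151 members listed, with no filter on RPF, both KO values lay above both control values in 40 (26.5%) and below in 23 (15.2%), beside 20.9% and 20.5% of all listed genes. The KRAB class held 22 above and 11 below of 67, and the other C2H2 class 16 above and 11 below of 75. The members just outside the filter were Zfp36l2 (49.6 units) and Zfp819 (47.6), and those just inside were Zfp799 (50.3) and Zfp12 (51.1).

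Summed over the class, the KRAB members took a larger share of RPF reads in both KO libraries. Their RPF summed to 4541 and 4716 units in control and to 5431 and 6049 in KO. As a share of all reads of the library this was 0.206% (95% exact binomial interval 0.195 to 0.219) and 0.216% (0.207 to 0.225) in control, and 0.246% (0.228 to 0.266) and 0.278% (0.251 to 0.306) in KO, so the intervals of the control and KO libraries were apart. The input share was 0.321% in both control libraries and 0.331% and 0.319% in KO, which overlapped. The ratio of summed RPF to summed input was 0.676 and 0.702 in control and 0.774 and 0.896 in KO. The other C2H2 members summed to 8763 and 8723 RPF units in control and 9095 and 8771 in KO, with ratios of 0.760 and 0.771 against 0.792 and 0.763 that overlapped. With 2 libraries against 2, an exact permutation test cannot give a two-sided p below 0.333, and no other test of the KRAB sum was run. The difference between the 2 classes was not tested either.

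**Figure D3:**
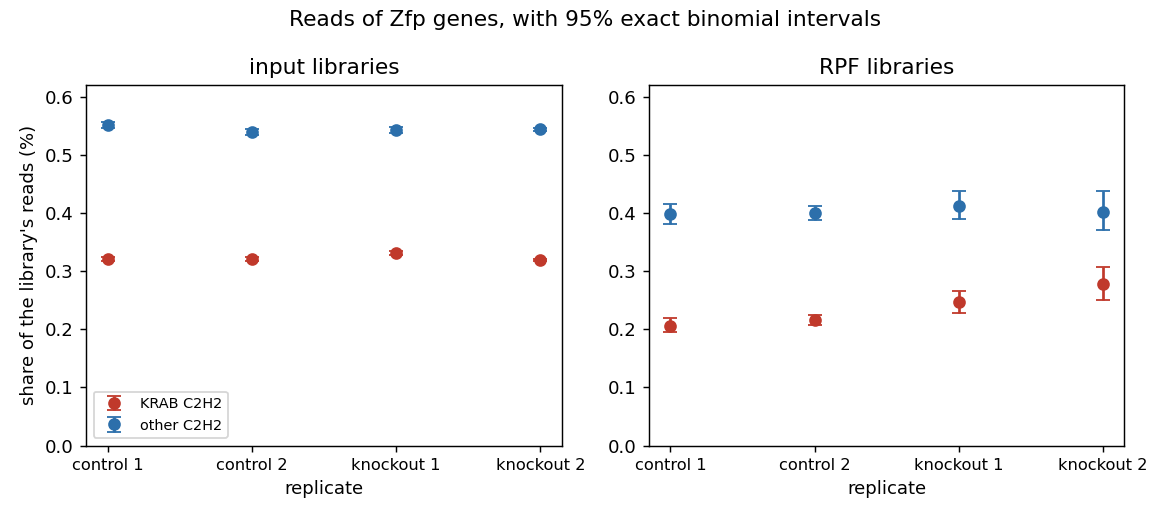
Share of each library's reads (%) that fell on KRAB and on other C2H2 members, with 95% exact binomial intervals that cover counting error only. The KRAB share was between 0.319% and 0.331% in the input libraries, while in RPF it was 0.206% and 0.216% in control and 0.246% and 0.278% in knockout.

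The KRAB sum was also taken over subsets of the class. Without Zfp57, its largest member, the KRAB sum was 3982 and 3890 units in control and 4544 and 5023 in KO. Over the 20 KRAB members with a mean input of at least 100 units, which were chosen without regard to RPF, it was 2773 and 3058 in control and 3352 and 3561 in KO. In the 42 KRAB members that shared under 10% of their words it was 3249 and 3419 in control and 3829 and 4074 in KO, and in the 25 above that share 1292 and 1297 in control and 1602 and 1975 in KO. The KO sums were higher in each subset. No read-share interval was taken for the 25. In the other subsets the intervals of some control and KO libraries overlapped. Without Zfp57 they were 0.170% to 0.192% in control RPF replicate 1 and 0.189% to 0.224% in KO RPF replicate 1. Over the 20 members they were 0.133% to 0.147% in control RPF replicate 2 and 0.138% to 0.168% in KO RPF replicate 1, and over the 42 members 0.149% to 0.164% and 0.158% to 0.190% in the same libraries. KRAB members had few reads, with a median of 10 and 21 reads in control RPF and of 5 and 4 in KO RPF, and 32 of the 67 (47.8%) had 3 reads or fewer in KO RPF replicate 2, against 28.1% of all genes. No gene with 0 reads in a library is among the genes analysed, and the part of this floor in the KRAB sum was not tested. The median log2 change of RPF was 0.43 over the 31 KRAB members that passed the filter and 0.22 over all 67 without it, beside -0.02 and -0.01 for all genes. Passing the filter takes the KO values themselves, so the former is given as a description. Over the other C2H2 members the median was -0.04 in the 50 that passed and -0.01 in all 75.

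**Figure D4:**
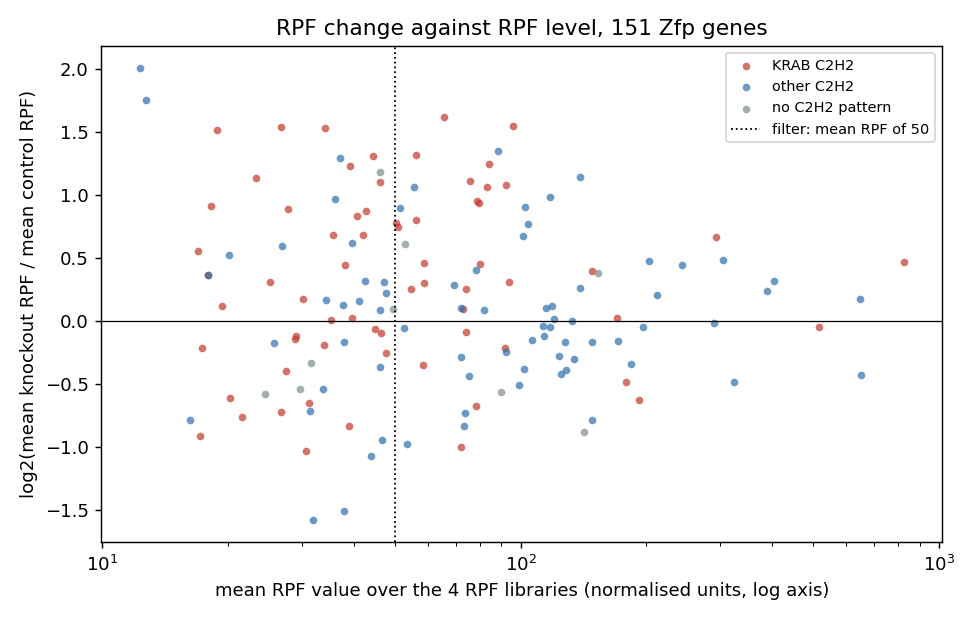
Log2 ratio of the mean KO to the mean control RPF value against the mean RPF value of the 4 libraries (normalised units, log axis) for the 151 Zfp genes, with the filter at 50 units as a dotted line. Single members scatter widely on both sides of 0 at low levels, and KRAB members lie on both sides.

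Among single members, the KRAB gene Zfp958 had the smallest p for RPF. Its values were 43.3 and 54.3 units in control and 98.6 and 187 in KO, while its input was 154 and 152 in control and 187 and 154 in KO. The KO footprints were higher than both control values, by a log2 change of 1.32 ± 0.48 SE (limma adjusted p = 0.35), but 17.98% of its coding words occur elsewhere. Zfp277 had RPF values of 67.0 and 107 in control and 164 and 218 in KO, a log2 change of 1.07 ± 0.40 (limma adjusted p = 0.35), with no shared word. Zfp110, known as a partner of the neurotrophin receptor, had the tightest replicates, with 228 and 225 units in control and 362 and 358 in KO (log2 change 0.64 ± 0.27, limma adjusted p = 0.42). It shared 14.9% of its words, all of them with its relative Zfp369. Zfp407 stood at 82.7 and 75.6 units in control and 173 and 140 in KO (log2 change 0.89 ± 0.40, limma adjusted p = 0.44). In each of these 4 genes the groups did not overlap. On the lower side, Zfp330, a nucleolar protein, had 228 and 140 units in control and 90.4 and 109 in KO (log2 change -0.79 ± 0.39, limma adjusted p = 0.50). Zfp445, a KRAB protein that keeps imprints beside Zfp57, had 240 and 227 in control and 115 and 187 in KO (log2 change -0.63 ± 0.34, limma adjusted p = 0.54). The imprint keepers Zfp57 and Zfp445 thus lay on opposite sides. Zfp131 (209 and 167 in control, 140 and 77.8 in KO) and Zfp106 (847 and 654 in control, 550.5 and 560 in KO) were lower in both KO libraries too.

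**Figure D5:**
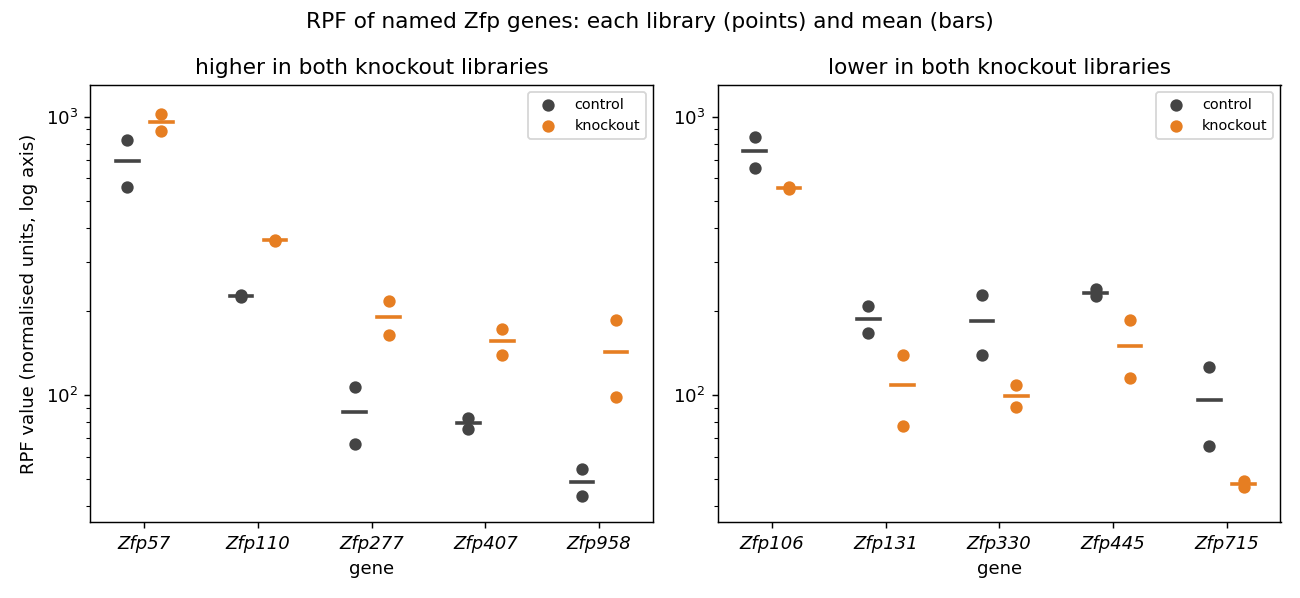
RPF values (normalised units, log axis) of 10 named members in each control and KO library (points) with group means (bars). The left panel holds members whose KO values were both higher, such as Zfp110 at 228 and 225 in control and 362 and 358 in knockout, and the right panel members whose KO values were both lower.

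KRAB genes of 1 cluster lay on different sides of control in RPF, at few reads. In the chromosome 17 cluster of 6, Zfp763 had RPF values of 63.0 and 44.6 units in control and 98.6 and 109 in KO, whereas Zfp870 had 55.1 and 44.6 in control and 24.6 and 31.1 in KO. Zfp799 was also higher in both KO libraries, Zfp81 lower, and Zfp871 and Zfp472 overlapped. In KO RPF the values of Zfp870 were 3 and 2 reads and those of Zfp81 were 2 reads and 1 read. Both genes fell below the RPF filter and were not tested. Of all listed genes, 20.9% lay above and 20.5% below control in this way. In the chromosome 4 cluster, where the members share 31.3% to 81.5% of their words with other genes, Zfp985 had 63.0 and 44.6 units in control and 131 and 93.3 in KO (log2 change 0.94 ± 0.48 SE, limma adjusted p = 0.52). Its neighbour Zfp979 had 27.6 and 33.0 in control and 8.22 and 46.7 in KO, which is 1 read and 3 reads, so its replicates lay on both sides of control.

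The third comparison set RPF against input in 1 fit of the 8 libraries, where genotype was allowed to act differently on RPF and on input. Of the 85 members tested, 0 passed (limma adjusted p, smallest 0.28), as did 0% of all 6240 genes tested. At an unadjusted p under 0.05, 9 members were higher and 3 lower, 14.1% of those tested against 13.0% of all genes (6.22% higher and 6.83% lower). Both KO values of TE lay above both control values in 26 members (30.6%) and below in 14 (16.5%), against 1311 and 1299 of the 6240 genes. Of all genes, 41.8% did not overlap. The RPF filter takes in the KO values themselves, so members of low control RPF can enter through high KO values. The counts by direction, at an unadjusted p and by overlap, are therefore given as a description. The median log2 change of TE was 0.05 in the members tested and -0.02 in all genes. In the KRAB class it was 0.42 over the 31 that passed the filter, 0.16 over all 67 and 0.17 over the 20 with a mean input of at least 100, where 10 were above 0 and 10 below. The shift of the summed KRAB values was thus carried unevenly by its members. Zfp407, a protein of 21 fingers, had the smallest p. Its TE was 0.401 and 0.404 in control and 0.890 and 0.691 in KO, at input values between 187 and 206 in all 4 libraries (log2 change 0.88 ± 0.26, limma adjusted p = 0.28). Zfp277 went from 0.284 and 0.453 to 0.683 and 1.02 (1.13 ± 0.34, limma adjusted p = 0.29). Zfp110 was at 0.806 and 0.749 in control and 1.12 and 1.15 in KO (0.52 ± 0.18, limma adjusted p = 0.32). Zfp958, which passed the RPF filter only through its KO values, was at 0.281 and 0.357 in control and 0.529 and 1.21 in KO. On the lower side, Zfp330 was at 0.988 and 0.573 in control and 0.333 and 0.422 in KO (-0.94 ± 0.33, limma adjusted p = 0.33), Zfp106 at 0.731 and 0.617 against 0.488 and 0.468 (-0.48 ± 0.19, limma adjusted p = 0.36), and the KRAB gene Zfp715 at 1.42 and 0.711 against 0.459 and 0.476 (-0.97 ± 0.42, limma adjusted p = 0.38).

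By role, 12 members act on RNA or ribosomes, and 0 of them passed in any comparison. Zfp598, the ubiquitin ligase that marks collided ribosomes, had RPF values of 165 and 229 in control and 205 and 249 in KO, which overlapped. Zfp622, a factor of large ribosomal subunit maturation, was level at 272 and 310 in control and 296 and 280 in KO. The median TE change of the 9 tested in this group was 0.18. Of the 12 members known from stem cells, imprinting or retroelement silencing, 0 passed, and the median TE change of the 11 tested was 0.03. Zfp281, a regulator of pluripotency, had TEs of 0.631 and 0.779 in control and 0.525 and 1.27 in KO, and the KO replicates enclosed the control values. Zfp809, which recognises a retroviral primer binding site, had 0.872 and 1.24 in control and 0.433 and 1.31 in KO, again with overlap. The groups of Zfp217, another regulator, did not overlap, at 1.05 and 1.02 in control and 1.45 and 1.57 in KO (log2 change 0.52 ± 0.20, limma adjusted p = 0.34). Of the 12 members linked to chromatin, ubiquitin or SUMO, 0 passed, and the median TE change of the 10 tested was -0.16. Zfp532, a partner of Zfp592 and Zfp687, was at 0.828 and 0.878 in control and 1.11 and 1.08 in KO, while Zfp592 was at 1.70 and 2.55 in control and 1.19 and 0.870 in KO.

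The chromatin partners through which KRAB proteins act were listed for 36 genes, among them Trim28, Setdb1 and the heterochromatin proteins. Of the 36, 0 passed in input, RPF or TE. Their median log2 change was 0.04 in input, -0.16 in RPF and -0.22 in TE, with 11 above and 25 below 0 in TE, beside -0.02 for all genes. At an unadjusted p under 0.05, 6 were lower in TE and 0 higher, 16.7% of the list against 13.0% of all genes (6.83% lower and 6.22% higher). Those lower were Pphln1, Rbbp7, Atrx, Hdac2, Daxx and Mphosph8. Setdb1, the methyltransferase of the pathway, was not among them. It had RPF values of 417 and 434 in control and 205 and 327 in KO. Its RPF change was -0.69 ± 0.29 on the log2 scale (limma adjusted p = 0.40). Hdac2, a histone deacetylase, had RPF values of 508 and 401 in control and 205 and 327 in KO (-0.78 ± 0.29, limma adjusted p = 0.36). In both genes the input of the genotypes overlapped while RPF was apart. Atrx and Pphln1, among others, showed this too. Pphln1 had RPF values of 114 and 89.2 in control and 32.9 and 15.6 in KO, the last at the floor of its library. Its RPF change was -1.75 ± 0.59 (limma adjusted p = 0.31). In RPF, both KO values lay below both control values in 14 of the 36 (38.9%) and above in 3 (8.33%). Of all genes tested, 20.8% lay below and 21.6% above. Not every partner showed this. The corepressor Trim28 was level in TE, at 0.979 and 0.947 in control and 0.968 and 0.957 in KO (log2 change -0.0006 ± 0.09 SE). The heterochromatin protein Cbx5 had RPF values of 410 and 452 in control and 690 and 327 in KO, which overlapped. Related families outside the members gave no call in RPF or TE. Of 23 Zbtb genes 13 were tested, with a median TE change of -0.05.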

How the data were processed

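Ribosome profiling libraries (8, in 4 groups of 2 biological replicates) were made with the TruSeq Ribo Profile kit. The authors removed rRNA and tRNA reads and aligned the rest with Bowtie to canonical gene models of mm10, allowing at most 1 mismatch. The sources used here name no version. The deposited signal values, although called RPKM, had been counted and then scaled by a single factor per library, without gene length, and each was a whole multiple of a library step within 0.02 read. RPF steps gave whole reads for 100% of values. The deposited log2 fold change of the authors was used only for its sign. Groups came from the sample labels. All 8125 identifiers were matched to GENCODE M21, and 88 symbols differed. KRAB and C2H2 patterns, and words of 28 nucleotides, were searched in GENCODE coding sequences on GRCm38.p6. The finger pattern was a cysteine, any 2 residues, a cysteine, any 12, a histidine, 3 to 5, and a histidine. The KRAB pattern was widened after protein sequences, but not values, were viewed.

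limma 3.58.1 in R 4.3.3 (lmFit, eBayes with trend, two-sided) was run on log2 of the value plus 10, over genes with mean input of at least 10 and, for RPF and TE, mean RPF of at least 50. TE was an interaction over 8 libraries. P-values were adjusted by Benjamini-Hochberg over all genes tested, threshold 0.05. Named members were the 4 of smallest p per comparison and direction whose groups did not overlap, the 6 extreme in level or control TE, and members with known roles. Setdb1, Hdac2 and the other partners lower in TE, Col4a1, Zscan4d, the members beside the filter and those of high sharing were named after values were seen. The members, classes and lists were chosen with earlier results of these data known. edgeR 4.0.16 and DESeq2 1.42.0 were run on RPF reads only, because no input gene had a single read against which to check the step. Scripts were tested on simulated data. Replicates are separate cultures, so p-values measure the spread between these cultures. The settings varied were the pseudocount (1 and 30), the filter (none, or means of 100 and 200), equalised medians, reads thinned to the shallowest library, the replicate number as a block, and each library left out. The medians of the KRAB class and their selection by input were added after the data had been seen.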

Additional observations from a re-analysis of the deposited data

How the results depend on the processing

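Calls among the members stayed at 0 in input, RPF and TE under the pseudocounts, filters, equalised medians and thinned reads, and in RPF under edgeR and DESeq2. edgeR and DESeq2 were not run on input and TE. Leaving out 1 library at a time gave 0 to 7 members in input, 0 to 11 in RPF and 0 to 20 in TE. The 11 and 20 came without KO RPF replicate 1 and the 7 without control input replicate 2, where a lone library is assumed to vary like the others. Same-numbered libraries did not deviate together (largest correlation 0.09). Counting error in RPF can hide a shared deviation, so whether the numbers pair samples is not settled by this. With the replicate block 1 member was called in input (Zfp951) and 0 in RPF and TE. The share of all genes called with that block is not given here, so the 1 call is not read as a result about the members. The median change in input was 0.0207 with the stricter filter, and -0.0025 to 0.0028 without 1 library. In RPF it was 0.2286 with the stricter filter, -0.0182 in thinned reads, which turned its sign, and 0.0659 to 0.2252 without 1 library. In TE it was 0.2144 with the stricter filter and 0.0215 to 0.2061 without 1 library. The median control TE relative to all genes was -0.3285 over the members tested, -0.4794 without a filter and -0.2728 with a pseudocount of 10. The KRAB median in RPF (0.4295) was 0.4846 and 0.3355 with pseudocounts of 1 and 30, 0.2173 without a filter, 0.4832 with the stricter filter (3 members), 0.348 in thinned reads, 0.2191 when selected by input, and 0.2552 to 0.4599 without 1 library. In TE (0.4207) it was 0.3372 with a pseudocount of 30, 0.1586 without a filter, 0.5249 with the stricter filter, 0.317 in thinned reads, 0.1677 when selected by input, and 0.2757 to 0.4861 without 1 library. The cause of these shifts was not tested. Of the values of single named members under alternatives, 0 reversed. These members were picked because both KO values lay beyond both control values. Their direction was thus nearly fixed in advance, and its persistence says nothing of their stability. RPF depth in KO, with a median of 7 and 4 reads per member, limits every RPF and TE value.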
